A study of Drosophila melanogaster with 2 samples.

Results

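The weaker reproducible distal regions are places in the fly genome where NC2beta ChIP-seq gave a low signal, far from coding promoters, at the same spot in both replicates. They numbered 3926 of the 30000 regions that the authors deposited from the pooled replicates. They were chosen by height, by replicate and by position: each was outside the authors' optimal set of 3897 peaks, had no optimal summit within 250 bp, had its summit more than 1000 bp from every transcription start site (TSS) of a protein-coding gene, and had a summit within 100 bp in the list of each replicate. The signal heights and the presence in both replicates therefore selected these regions and are given as a description only. The material was mixed-sex whole embryos of Drosophila melanogaster aged 0 to 24 h, from 1 transgenic line that stably expresses NC2beta with GFP at its C terminus. Chromatin was sheared to 200 to 800 bp and precipitated with an antibody against GFP. The samples formed 1 group of 2 biological replicates, numbered 1 and 3, with no second genotype or treatment, so no test between conditions was possible and no p-value is given. The embryos span all of embryonic development and all tissues, and the control library was not analysed here, so DNA that is recovered from a site whatever the tagged protein was not measured.

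NC2beta (Dr1) and NC2alpha (DRAP1) form negative cofactor 2, a histone-fold dimer that grips the TATA-binding protein on DNA. NC2 is known to hold back transcription from TATA promoters, and in Drosophila it was also found to favour promoters with a downstream promoter element. Far from promoters, embryonic chromatin holds enhancers, which bind sequence-specific factors and drive developmental genes, and insulators, which bind proteins such as CTCF and Su(Hw) and separate regulatory domains.

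The sequences at the summits were not used by the choice of regions. Those of high regions show the AT-rich stretches that the composition values given further on describe. Printed here are 6 regions of great pooled height whose sequence lies wholly in introns or between genes. The sequences are from the Release 6 (dm6) genome, plus strand, 50 bp to each side of the summit. All sequences printed here and below come from arms 2L, 3L, 3R and X. They are therefore not the highest of their kind in the whole genome. Each is named by its host gene or, between genes, by the gene of the nearest TSS. D encodes the Sox factor Dichaete, cindr a CIN85-type adaptor, Ddr a discoidin domain receptor and trol the basement membrane protein perlecan. The GC content of these windows ranged from 22.8% at CG10365 to 40.6% at trol.
D, chr3L:14174400-14174500: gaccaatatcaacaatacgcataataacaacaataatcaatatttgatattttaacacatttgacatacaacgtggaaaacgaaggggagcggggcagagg
cindr, chr3R:30812672-30812772: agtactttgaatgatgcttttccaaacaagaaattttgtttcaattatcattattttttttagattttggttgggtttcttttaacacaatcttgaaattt
Ddr, chr2L:6280435-6280535: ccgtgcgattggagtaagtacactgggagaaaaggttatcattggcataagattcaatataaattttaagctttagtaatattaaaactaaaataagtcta
CG10365, chr3R:23726926-23727026: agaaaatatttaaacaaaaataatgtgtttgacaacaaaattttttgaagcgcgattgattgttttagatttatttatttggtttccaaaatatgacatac
CG14662, chr3R:4975332-4975432: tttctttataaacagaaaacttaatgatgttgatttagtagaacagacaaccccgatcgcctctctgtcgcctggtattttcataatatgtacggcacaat
trol, chrX:2536259-2536359: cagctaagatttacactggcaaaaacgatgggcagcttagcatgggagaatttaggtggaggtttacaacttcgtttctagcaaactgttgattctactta

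A second set shows a short word that stood on both sides of the summit, in the direction described next, in only 19 of the 3926 regions. The capitals mark CAGTGCA, or its reverse complement, placed so that on each side it reads 5′ to 3′ away from the summit. These are 3 high regions of the kind that carry the word in this direction on both sides. They are printed as 125 bp to each side of the summit on the plus strand. All 3 lie between genes: the first is nearest to CG42693, the second to Awh, which encodes the LIM-homeodomain protein Arrowhead, and the third to Dr, which encodes the homeodomain protein Drop. In each, the stretch between the words starts rich in A and ends rich in T.
CG42693, chr3R:31698233-31698483: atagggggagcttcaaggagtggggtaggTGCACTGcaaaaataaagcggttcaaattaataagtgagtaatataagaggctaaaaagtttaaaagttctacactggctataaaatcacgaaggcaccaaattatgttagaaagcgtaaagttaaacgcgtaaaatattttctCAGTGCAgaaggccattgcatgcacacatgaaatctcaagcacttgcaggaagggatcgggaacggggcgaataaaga
Awh, chr3L:3868095-3868345: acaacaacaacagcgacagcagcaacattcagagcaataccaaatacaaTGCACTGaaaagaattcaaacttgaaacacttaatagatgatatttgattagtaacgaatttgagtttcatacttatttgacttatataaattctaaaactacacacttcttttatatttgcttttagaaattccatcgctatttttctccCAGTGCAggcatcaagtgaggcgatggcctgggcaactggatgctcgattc
Dr, chr3R:29541423-29541673: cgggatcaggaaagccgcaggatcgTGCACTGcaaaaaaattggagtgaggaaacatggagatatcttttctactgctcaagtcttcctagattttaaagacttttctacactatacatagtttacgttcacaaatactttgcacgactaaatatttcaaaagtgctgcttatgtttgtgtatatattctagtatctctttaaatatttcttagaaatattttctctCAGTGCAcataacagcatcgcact

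The last set shows matches to known factors, in capitals. The region nearest to upd2, a JAK/STAT pathway ligand gene, was a high one with both a CTCF match and a Su(Hw) match. The intronic region of Nedd4, a ubiquitin ligase gene, was a high one with the repeat GAGAGA.
upd2, chrX:18239457-18239557: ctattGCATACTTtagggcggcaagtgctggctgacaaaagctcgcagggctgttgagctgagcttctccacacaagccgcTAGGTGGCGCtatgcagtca
Nedd4, chr3L:17532308-17532408: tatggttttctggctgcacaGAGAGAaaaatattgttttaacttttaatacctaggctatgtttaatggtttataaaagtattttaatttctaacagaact

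The heights ranged from 18.04 to 74.12, with quartiles of 30.7, 38.5 and 50.2. A height is the authors' signal value for a region, whose unit no source used here states. The highest region had a height of 74.12 and the lowest optimal peak one of 74.14, so the upper edge of the set is the edge of the optimal set. Distal optimal peaks, of which there were 1355, had a median of 114.6, and the 11065 distal regions below the optimal set that lacked a summit in both replicates (unmatched distal regions) had a median of 22.7. The deposited −log10 q had a median of 1.5 in the weaker reproducible regions, and 2235 of the 3926 (56.9%) had a q of 0.05 or less, against 7.70% of the unmatched distal regions. At the other edges of the choice, the region nearest to a TSS lay 1001 bp away in an intron of LRR with a height of 52.8, and the matched region just inside 1000 bp lay 998 bp from a TSS in an intron of CG31522 with a height of 37.6. The 508 regions whose farther replicate summit lay 81 to 100 bp away had a median height of 35.5, and the 366 at 101 to 120 bp, just outside, had one of 33.3.

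Whether a distal region was found in both replicates followed its height closely. Of all 25267 regions below the optimal set and away from its summits, 29.3% had a summit in both replicates. The share was 26.2% among the 14991 distal regions, which gives the 3926 regions described here, and 33.8% among the 10276 within 1000 bp of a TSS. Among distal regions the share was 3.70% at heights 18 to 25, 30.3% at 25 to 35 and 63.5% at 35 to 50, and at heights 50 to 75 it was 991 of 1157 (85.7%, 95% exact interval 83.5 to 87.6). In regions near TSSs the shares over the same ranges, from low to high, were 4.64%, 28.7%, 55.9% and 79.3%. Exact (Clopper-Pearson) intervals here and below cover counting error only. The pooled height already contains both replicates, so this is a description of the lists.

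**Figure D1:**
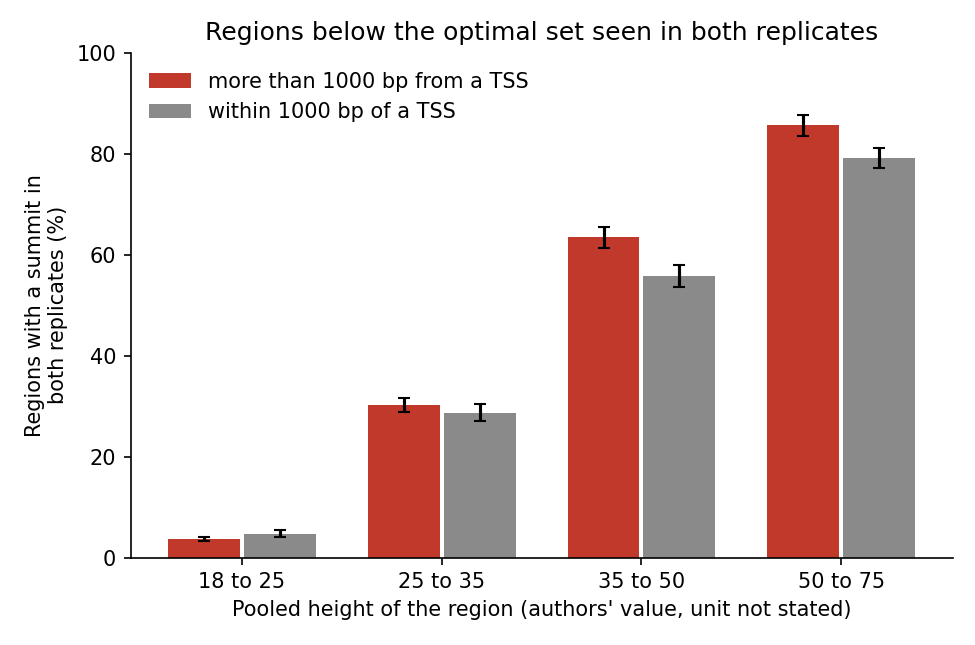
Share of regions below the optimal set with a summit within 100 bp in both replicates (%), by pooled height, for regions more than 1000 bp from a protein-coding TSS (red) and within 1000 bp (grey); bars are shares and lines are 95% exact intervals. The share climbs from 3.70% to 85.7% in distal regions as height increases.

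Within the set the replicates ranked the regions only loosely. Heights in replicate 1 ranged from 11.3 to 58.6 with a median of 20.4, and heights in replicate 3 ranged from 10.04 to 45.6 with a median of 16.5. Replicate 1 had the greater height in 2780 of 3926 regions. Spearman's rho between the replicates was 0.36 across the 3926 regions and 0.73 across the 1306 distal optimal peaks with a summit within 100 bp in both replicates. This is a correlation across regions that share their libraries, and the narrow range of heights in the weaker set limits it. After division of each height by the replicate's median over these regions (relative height), 3542 of 3926 (90.2%) lay within 1 log2 unit between replicates, and the log2 ratio of replicate 3 over replicate 1 had an SD of 0.59. In 3690 regions (94.0%) neither replicate alone placed the region among its highest 3897, and 1 region was among them in both.

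In 9 of the 10 highest regions the replicates' relative heights lay within 1 log2 unit of each other. The highest lay in a 5′ UTR exon of baz (FBgn0000163), the polarity protein Bazooka, on X from 17175790 to 17176189, 15984 bp from the nearest TSS. It had heights of 39.2 in replicate 1 and 33.4 in replicate 3. The region 3087 bp from D (FBgn0000411) had 41.0 and 34.2, and the region in cindr (FBgn0027598) had 29.8 and 42.0. The region in an intron of mbl (FBgn0265487), a splicing regulator, had 42.2 and 30.6. These had relative heights of 1.97 ± 0.069 (baz), 2.04 ± 0.040 (D), 2.0 ± 0.76 (cindr) and 1.96 ± 0.16 (mbl; SD, n = 2 each), and cindr was the most variable of the 4. Their similar means follow from the choice of the greatest pooled heights. The others in introns, with the height in replicate 1 before that in replicate 3, were SppL (FBgn0039381), a signal peptide peptidase-like gene, with 43.7 and 30.4, Ddr (FBgn0053531) with 43.4 and 29.5, and CG10365 (FBgn0039109) with 38.6 and 32.9. The remaining pair lay in exons of RNA genes, in SIFaR (FBgn0038880), the receptor gene of the neuropeptide SIFamide, with 33.7 and 42.0, and in CG46443 (FBgn0287213) with 41.5 and 38.5. The exception among the 10 was a 5′ UTR region of spen (FBgn0016977), which encodes an RNA-binding regulator of transcription. It had a height of 57.9 in replicate 1 and 12.6 in replicate 3, and was one of the 3 regions most different toward replicate 1.

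Regions in which the replicates differed most came from both ends. Toward replicate 1, the region nearest to CG6465 had heights of 58.6 in replicate 1 and 10.9 in replicate 3, and the one nearest to CG9922 had 56.5 and 11.1. Their log2 ratios of relative heights, replicate 3 over replicate 1, were −2.13 and −2.04, and that of spen was −1.90. Toward replicate 3, an intronic region of simj had 12.8 and 41.2 (log2 ratio 1.99), an intronic region of EcR, the ecdysone receptor gene, had 12.9 and 40.3 (1.94), and a region nearest to CG43245 had 15.5 and 43.4 (1.79). In the lower replicate these 6 regions ranked from 19546 (CG43245) to 26398 (CG6465) of 30000, and in the higher replicate from 2167 to 2810.

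**Figure D2:**
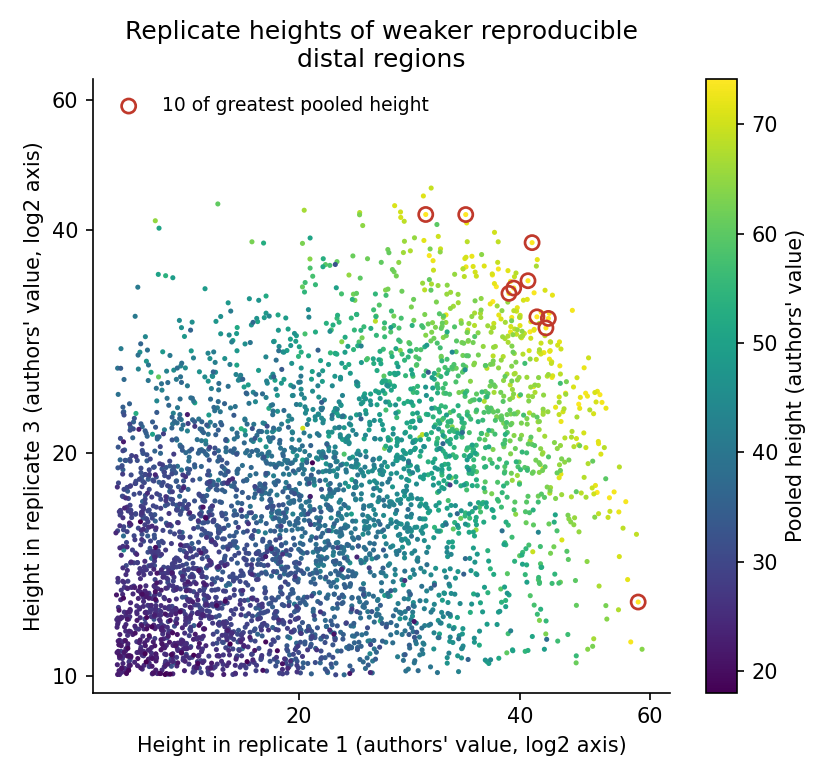
Height of each of the 3926 weaker reproducible distal regions in replicate 1 (x) and replicate 3 (y), the authors' values on log2 axes, coloured by pooled height. Circles mark the 10 of greatest pooled height, of which the spen region (57.9 and 12.6) lies apart at the lower right.

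Introns held most of the weaker reproducible distal regions. Of the 3926 summits, 2111 (53.8%, interval 52.2 to 55.3) lay in introns of protein-coding genes, against 61.6% of distal optimal peaks, 46.2% of unmatched distal regions and 45.1% of all distal bases of the arms. Sequence between genes held 1001 (25.5%, interval 24.1 to 26.9), against 28.6%, 23.3% and 33.0% in the same order. Coding sequence held 466 (11.9%, interval 10.9 to 12.9), against 0.66%, 22.5% and 13.7%. Over the whole sets the intron and coding shares thus stood between those of the distal optimal peaks and the unmatched regions, with intervals that do not overlap either. Within ranges of height the intron shares of matched and unmatched regions had overlapping intervals. They were 47.10% and 43.39% at heights 18 to 25, and 45.40% and 49.30% at 25 to 35. At 35 to 50 they were 56.77% and 56.14%, and at 50 to 75 they were 62.16% and 62.05%. Exons of RNA genes held 160 (4.08%), 3′ UTRs 115 (2.93%) and 5′ UTRs 20 (0.51%). Annotated transposable elements held 14 (0.36%).

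**Figure D3:**
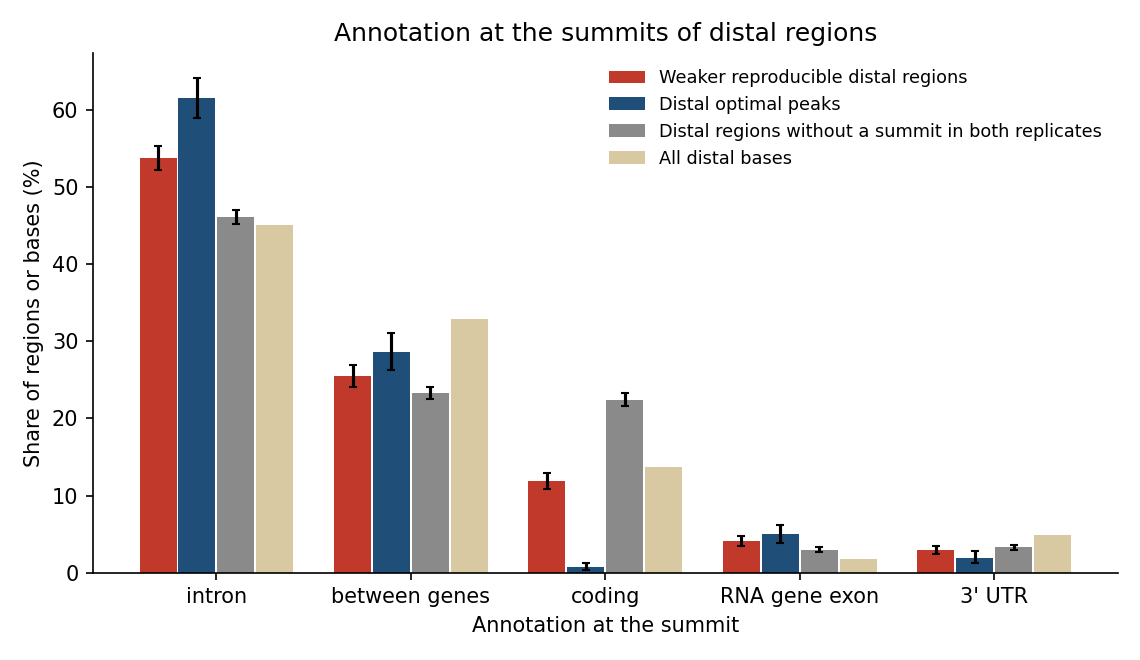
Share (%) of summits in each annotation class for the weaker reproducible distal regions (red), distal optimal peaks (blue) and distal regions without a summit in both replicates (grey), beside the share of all distal bases (sand); lines are 95% exact intervals. Coding sequence holds 11.9% of the weaker reproducible regions, 0.66% of distal optimal peaks and 22.5% of the unmatched regions.

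The coding share fell steeply with height inside the set. It was 21.0% at heights 18 to 25, 22.8% at 25 to 35, 8.0% at 35 to 50 and 0.71% (7 of 991) at 50 to 75. GC content within 100 bp of the summit moved with it, with means of 45.66%, 46.03%, 41.64% and 38.61% in the same order, against 41.2% to 42.0% in windows 500 bp to the sides. Over the whole set GC content was 42.6 ± 9.25% (SD over 3926 regions), against 37.1 ± 6.07% in distal optimal peaks and 45.6 ± 9.25% in unmatched regions. In unmatched regions the coding share was 25.96% at heights 18 to 25, 18.97% at 25 to 35, 8.27% at 35 to 50 and 0.60% (1 of 166) at 50 to 75, with GC contents of 46.38%, 44.99%, 41.81% and 39.01%. At heights 25 to 35 the coding share was thus higher in the weaker reproducible regions (interval 20.5 to 25.2) than in the unmatched ones (17.6 to 20.4), while in the other 3 ranges the intervals overlap. The 338 distal optimal peaks of lowest height went on in the same direction, with no summit in coding sequence and a GC content of 37.3%. Coding share and GC content were thus lower at heights above 35 than below in the matched and in the unmatched regions.

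A small share of the regions lay at start sites of RNA genes, which the choice did not remove. A TSS of a gene annotated as noncoding RNA lay within 250 bp of 79 summits (2.01%, interval 1.60 to 2.50), against 2.88% of distal optimal peaks and 1.43% of unmatched regions. Transfer RNA genes lay within 250 bp of 23 summits (0.59%), among them tRNA:His-GTG-1-2 and tRNA:Cys-GCA-1-3, against 0.37% of distal optimal peaks and 0.52% of unmatched regions. Small nucleolar RNA genes did so for 8, and the small nuclear RNA genes snRNA:U4:38AB, snRNA:U5:34A and snRNA:U7 for 1 each. The intervals of the weaker reproducible regions overlap those of both other sets for each of these gene types, at the edges only for noncoding RNA genes against unmatched regions (1.60 to 2.50 against 1.22 to 1.67).

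The regions were spread over all 6 arms in near proportion to their distal sequence. Arms 2L, 3L, X, 3R and 2R held 37.96, 38.45, 37.97, 36.42 and 34.06 per Mb of distal sequence, and chromosome 4 held 22 regions, or 19.2 per Mb. The nearest optimal summit lay at a median of 6622 bp, against 7478 bp in unmatched regions, and 2467 of the weaker reproducible regions (62.8%) had one within 10000 bp. Another weaker reproducible region lay within 5000 bp of 2022 (51.5%). The region farthest from a TSS lay 86659 bp away in an intron of hth.

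The genes with most regions in their bodies are long, and several encode developmental regulators. The immunoglobulin gene kirre (FBgn0028369), needed for myoblast fusion, held 23 over a body of 394 kb, and hth (FBgn0001235), a TALE homeodomain cofactor of Hox proteins, held 18 over 132 kb. Next were the Wnt receptor gene fz2 (FBgn0016797) with 15, heph (FBgn0011224), a polypyrimidine tract-binding protein gene, with 15, the overlapping genes Glut4EF (FBgn0267336) and CG46467 (FBgn0287598), which share 14, and the zinc finger gene jing (FBgn0086655) with 14. SKIP (FBgn0051163) and the Krüppel-like factor gene luna (FBgn0040765) held 13 each, and the nuclear receptor gene Eip75B (FBgn0000568) held 12. Per 100 kb of body more than 1000 bp from a TSS these came to between 6.79 in kirre and 16.8 in fz2, against 4.01 over all protein-coding genes. The genes were chosen for their high counts, which favours densities above that value, so the densities are a description only. Distal optimal peaks in the same bodies numbered 9 in kirre, 2 in hth, 2 in fz2 and none in heph or Glut4EF. In all, 1982 of 13945 protein-coding genes (14.2%) had a region in the body or nearest to a TSS. Their median length was 9.46 kb, against 2.17 kb over all protein-coding genes, so counts per gene follow length.

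Regions were dense in the bodies of several signalling and organ formation genes. The 19 genes of signalling receptors and ligands held 71 regions in their bodies, or 14.2 per 100 kb (exact Poisson interval 11.1 to 17.9), and 13.6 without fz2, the gene with most. The bodies of tkv, the receptor of Dpp, held 11 over 52.4 kb and those of the Wnt receptor gene fz held 9. Trachea and salivary gland genes held 11.3 per 100 kb (7.45 to 16.4), led by pnt with 8, an ETS factor of the EGFR pathway, and CrebA with 4, a regulator of secretion. Genes of the ecdysone response and nuclear receptors held 8.86 per 100 kb (6.74 to 11.4), with 12 in Eip75B, 11 in Eip74EF and 10 in EcR. Each of these 3 intervals lies above the 4.01 of all genes, also without the gene of most regions (10.05, interval 6.05 to 15.7, for trachea and salivary gland genes without pnt, and 8.26, interval 6.07 to 10.98, for the ecdysone list without Eip75B). The intervals of GATA and endoderm genes (8.62, interval 4.3 to 15.4) and of dorsoventral and mesoderm genes (7.15, interval 4.23 to 11.3) lie just above that value and rest on 1 gene each. Without ush the GATA list had 5.67 (1.54 to 14.5), and without tup the dorsoventral list had 6.04 (3.30 to 10.1), which include it. Hox cluster genes (6.13, interval 3.69 to 9.57), anterior-posterior patterning genes (6.40, interval 3.41 to 10.9), Notch and proneural genes (6.58, interval 2.41 to 14.3), neural genes (4.93, interval 3.61 to 6.58) and muscle structure genes (3.07, interval 1.13 to 6.69) all have intervals that include it. So do ribosomal protein genes, with 3 regions in 30.04 kb of such sequence (9.99, interval 2.06 to 29.2), and mitochondrial ribosomal protein genes, with none in 19.97 kb (interval 0 to 18.5). Some genes stand in more than 1 list, such as pnt.

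**Figure D4:**
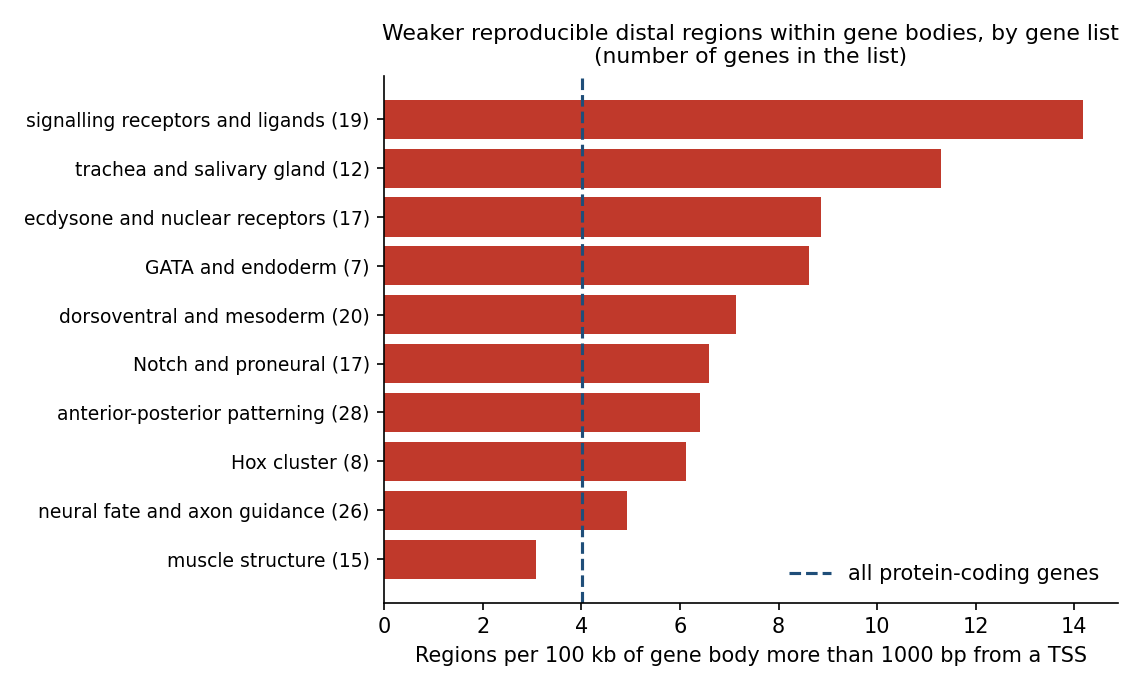
Weaker reproducible distal regions per 100 kb of gene body more than 1000 bp from a TSS, for each gene list with at least 50 kb of such sequence, with the number of genes in brackets; the dashed line marks all protein-coding genes (4.01). Signalling receptors and ligands (14.2) stand highest and muscle structure genes (3.07) lowest among the lists shown.

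Counts of genes with a region follow gene length: 14.2% of all protein-coding genes had one in the body or nearest to a TSS, and 589 of 1013 (58.1%) of those of 20 kb or more. Of the 8 Hox cluster genes 6 are that long, and all 8 had a region in the body or nearest to a TSS, with 9 at Antp, 6 at Dfd and 4 at Abd-B. So did 6 of 7 GATA and endoderm genes, with 7 at ush, a cofactor of GATA proteins, and 4 each at GATAe and fkh. Of the 20 dorsoventral and mesoderm genes 14 (70%) had one, against 45% with regions inside the body alone, led by the T-box gene mid and the LIM-homeodomain gene tup with 6 each and the homeodomain gene Dr with 5. Of the 28 anterior-posterior patterning genes found in the annotation 17 (60.7%) had one, against 25% with regions inside the body alone, and nkd, an inhibitor of Wnt signalling, ptc, the Hedgehog receptor, and wg, a Wnt ligand, had 5 each. In the neural list, where 18 of 26 genes are 20 kb or longer, 14 had one, with 15 at jing, 8 at Lim1 and 5 at the adhesion gene Fas3, and in the trachea and salivary gland list 10 of 12, with 7 at the POU factor gene vvl. The Notch and proneural list had 5 of 17, with 3 at N and 2 at emc. Lower shares were found for muscle structure genes, with 4 of 15 and 4 regions at Tm1, ribosomal protein genes with 7 of 92 (7.61%) and mitochondrial ribosomal protein genes with 0 of 73, which allows a share of up to 4.93%. The ribosomal protein genes have a median length of 1.31 kb and the mitochondrial ones of 0.91 kb, so little of their sequence is far from a TSS. Neither list had a gene of 20 kb or more.

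A larger share of the long genes that held these regions than of those that did not had an optimal NC2beta peak at a TSS. Among protein-coding genes of 20 kb or more, 192 of 589 with a region (32.6%, interval 28.8 to 36.5) had an optimal summit within 250 bp of a TSS, against 40 of 424 without one (9.43%, interval 6.83 to 12.6). Median lengths were 38.2 kb and 35.8 kb. Whether the genes are expressed in the embryo was not measured here, and its part in this difference was not tested.

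Known motifs were sought within 100 bp of each summit on both strands, and in windows of the same length 500 bp to both sides. The motifs with the largest ratios of summits to flanks were rare ones. The promoter element GGTCACAC (Motif 1) was at 23 summits (0.59%, interval 0.37 to 0.88), against 0.15% in the flanks (3.83 times) and 0.28% of all distal windows, and at 2.18% of all pooled regions, which include promoters. At distal optimal peaks it was at 0.52%, and at unmatched regions at 0.38%. In the weaker reproducible regions its excess over the flanks was 0.43 percentage points, and 0.20 with flanks at 1000 bp. The ratio of 3.83 thus depends on the flanks chosen. The CTCF motif was at 37 summits (0.94%, interval 0.66 to 1.3), against 0.33% in the flanks and 0.20% of all distal windows of that length. The Su(Hw) core GCATACTT was at 54 (1.38%, interval 1.04 to 1.79), against 0.71% in the flanks and 0.92% of all distal windows. At distal optimal peaks these shares were 3.62% for CTCF and 2.14% for Su(Hw), and at unmatched regions 0.55% and 1.07%. The upd2 region printed above is 1 of 3 regions that held both. From the lowest heights to the highest, the CTCF motif was at 1 of 276 regions (0.36%), 4 of 1271 (0.31%), 16 of 1388 (1.15%) and 16 of 991 (1.61%). The flanks had 0.54%, 0.28%, 0.29% and 0.40% in the same order. Unmatched regions had 0.43%, 0.82% and 0.75% in the lower 3 ranges and 0 of 166 at heights 50 to 75.

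The repeat GAGAGA, which is bound by the GAGA factor and by CLAMP, was at 446 summits (11.4%, interval 10.4 to 12.4), against 8.10% in the flanks and 6.86% of all distal windows. It was at 14.6% of distal optimal peaks, against 11.03% in their flanks, and at 8.61% of unmatched regions, against 7.33% in theirs. From the lowest heights to the highest, the excess over the flanks was 0.54, 3.03, 2.41 and 5.50 percentage points, against 0.79, 1.57, 2.88 and 9.94 in unmatched regions. It was 7.69 in the 338 distal optimal peaks of lowest height and 1.33 in the 338 of greatest height, so it did not follow height steadily. TATAAA was at 900 summits (22.9%), against 22.9% in the flanks, so the whole set showed no difference. This share moved with height and with GC content: it was 19.9%, 17.7%, 23.7% and 29.4% from the lowest heights to the highest, against 22.5% to 23.3% in the flanks of the upper 3 ranges. Distal optimal peaks had 30.3%, against 22.8% in their flanks. In the lower regions, where TATAAA was less frequent than in the flanks, the summits were also richer in GC, and the part of base composition was not tested.

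Sites of several early patterning and lineage factors were about as frequent at the summits as in the flanks. The Zelda site CAGGTA was at 4.38% of summits and 4.16% of flanking windows, and the GATA site GATAAG at 9.86% and 9.64%. CACACACA was at 5.50% and 5.52%, and the DNA replication-related element TATCGATA of housekeeping promoters at 0.38% and 0.36%. The bHLH site CAGCTG was higher at summits, with 9.60% (interval 8.70 to 10.57) and 8.19%. At distal optimal peaks it was lower than in the flanks, with 5.90% and 8.89%, and at unmatched regions higher, with 10.77% and 8.70%. The homeodomain site TAATTA was lower at summits, with 10.9% (interval 9.90 to 11.87) and 13.8%. So was the run AAAAAAAA, with 11.74% (interval 10.75 to 12.79) and 13.45%. The shares of Bicoid-class (TAATCC), Snail (CAGGTG) and Grainyhead (ACCGGTT) sites and of Motif 6 differed from their flanks by at most 0.71 percentage points. A match is a run of letters and not a measured site.

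Beyond the known motifs, all words of 6 bases were counted. They were ranked on arms 2L and 3L (1579 regions) by how often they lay within 50 bp of the summit relative to the flanks, among the 1812 words at 2% or more of those summits, and then read on the other arms (2347 regions). The top word was CAGTGC (reverse complement GCACTG). On the arms that did not choose it, it was at 186 summits (7.93%, interval 6.86 to 9.09), against 89 in the flanks on average (3.79%), which is 2.09 times as often. Of the 10 top words, 5 held AGTG or its reverse complement CACT, and those 5 stood at 1.60 to 2.09 times their flanks on the other arms. The palindrome GTGCAC, at 2.21 times, also overlaps the top word. The other 4 stood at 1.09 to 1.62 times. The word TCAGTT, a frequent start of fly initiators, is not part of this group, while TCAGTG, which differs from it in the last base, is. The directions of both are given below.

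The word also had a direction. CAGTGCA, the top word with 1 more base, was counted between 20 and 120 bp from the summit on both sides. It was called outward where it read 5′ to 3′ away from the summit and inward where its reverse complement did. In the weaker reproducible distal regions 265 words pointed outward and 107 inward, so 71.2% were outward (interval 66.4 to 75.8). Both counts come from the same windows. The outward word was in 245 of the 3926 regions (6.24%, interval 5.50 to 7.04) and the inward word in 105 (2.67%). On the arms not used to rank the 6-base words 163 pointed outward and 70 inward (69.96%). In windows moved 500 bp farther out there were 60 outward and 80 inward (42.9%). Distal optimal peaks had 177 outward and 25 inward (87.6%), and unmatched distal regions 333 and 262 (56.0%). The direction was noticed while these data were being examined, and it is a description of them.

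Direction also moved with height. At heights 18 to 25 there were 9 words outward and 6 inward, at 25 to 35 there were 48 and 34, at 35 to 50 there were 89 and 43, and at 50 to 75 there were 119 and 24. At heights 50 to 75 the outward word was thus in 109 of 991 regions (11%, interval 9.12 to 13.1), close to the 11.8% (160 of 1355) of distal optimal peaks, while the inward word was in 2.32% and 1.85%. Most words also pointed outward in the unmatched distal regions of the middle heights. Unmatched regions had 164 outward and 178 inward at heights 18 to 25, 124 and 63 (66.3%) at 25 to 35, 37 and 13 (74.0%) at 35 to 50, and 8 and 8 in the 166 unmatched regions at 50 to 75. The outward shares of the weaker reproducible regions at the 2 middle ranges, 58.5% (interval 47.1 to 69.3) and 67.4% (58.7 to 75.3), overlap those of the unmatched regions (59.0 to 73.0 and 59.7 to 85.4). At heights 50 to 75 the shares were 83.2% (76.1 to 88.9) and 50% (24.6 to 75.3), the second from 16 words. Regions in introns had 136 outward and 50 inward and regions between genes 103 and 37, while those in coding sequence had 11 and 11. Optimal peaks within 250 bp of a TSS, which are the bound promoters, had 33 and 26 (55.9%, interval 42.4 to 68.8). The related word CAGTGTA was outward in 166 and inward in 46 cases (78.3%) in the weaker reproducible regions, and at bound promoters it was outward in 53 and inward in 10. It stood first among 7-base words ranked by direction on arms 2L and 3L, so the count over all arms includes those that favoured it. On the other arms it was outward in 91 and inward in 31 cases (74.6%) in the weaker reproducible regions. TCAGTT pointed outward in 273 and inward in 233 cases (54.0%, interval 49.5 to 58.4). TCAGTG pointed outward in 346 and inward in 189 cases (64.7%, interval 60.5 to 68.7), and in 187 and 114 (62.1%) on the arms other than 2L and 3L. At bound promoters it was outward in 129 and inward in 121 cases (51.6%).

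**Figure D5:**
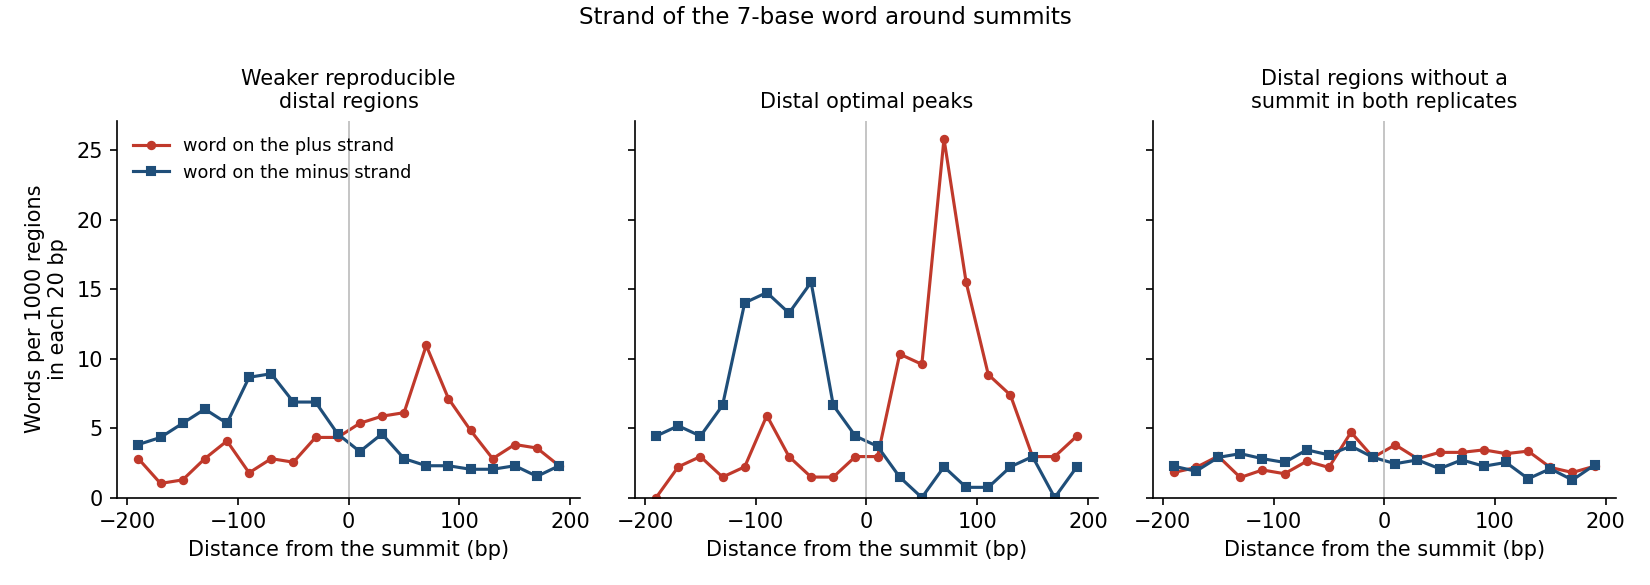
Occurrences of the 7-base word on the plus strand (red) and the minus strand (blue) per 1000 regions, in 20 bp steps of distance from the summit, for weaker reproducible distal regions, distal optimal peaks and distal regions without a summit in both replicates. In the weaker reproducible regions the minus-strand word reaches 8.92 per 1000 at 80 to 60 bp left of the summit and the plus-strand word 10.9 at 60 to 80 bp right of it, against 2.80 and 2.29 for the opposite strand.

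The outward words sat at the border of an AT-rich centre. They began at a median of 67 bp from the summit, with quartiles of 46 and 88 bp. Only words between 20 and 120 bp were counted, and words spread evenly over that window would give similar values. These distances by themselves therefore do not show a preferred position. Counts in 20 bp steps out to 200 bp, beyond that window, were highest at 60 to 80 bp on both sides. Right of the summit the plus-strand word numbered 21 at 0 to 20 bp, 43 at 60 to 80 bp and 9 at 180 to 200 bp. Left of it the minus-strand word numbered 18, 35 and 15 at the same distances. The 50 bp on the summit side of the 265 outward words had a GC content of 34.1 ± 10.47% (SD over words), and the 50 bp on the far side 47.5 ± 9.98%. Around the 107 inward words the values were 44.1 ± 11.5% and 42.8 ± 10.8%. Pyrimidines were frequent from 7 to 2 bases before the outward word: T stood at 73.2%, 78.5% and 77.7% of the positions 7, 6 and 5 before it, and C or T at 80.7% to 86.0% of positions 7 to 2 before it. At the base next to the word C or T stood at 55.1%. Before the inward word, C or T stood at 52.3% to 64.5% of these positions. The same run was present at distal optimal peaks, with T at 86.4% of the position 6 before the outward word. In the printed Awh and Dr regions this shows as ttttctccCAGTGCA and ttttctctCAGTGCA on the right and TGCACTGaaaagaa and TGCACTGcaaaaaa on the left. In 19 regions the word pointed outward on both sides, and the pair spanned 118 to 209 bp from end to end, with a median of 158 bp. The counting window limits these spans too. In intronic regions whose hosts lie on 1 strand, 57 outward words lay on the sense strand of the host gene and 78 on the antisense strand. Of the 265 outward words, 104 (39.2%) lay wholly in sequence that the genome file marks as repetitive or of low complexity, against 15.8% of all bases within 100 bp of these summits. Whether read recovery or mapping at such sequence moved these counts was not tested.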

How the data were processed

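Processed peak lists were analysed; no reads were used. Per the file lists deposited with them, the lists of each replicate and of the pooled replicates derive from alignments and a further file not analysed here. Column 7 is the authors' signal value (height, whose unit no source used here states), and column 9 is the deposited −log10 of the q value. Each list with background holds 30000 regions. No source used here names the aligner, the peak caller or the read totals, so the depth is unknown and no depth-based interval is given. The lists of build dm6 were used, once all regions had been found to fall inside their arms. The lists of the older build were not used.

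Summits were set against the Ensembl release 115 annotation (19253 unique TSSs of 13945 protein-coding genes) and the RefSeq Release 6 genome, with 1-based coordinates, in Python 3.11.15 with numpy 2.4.6 and scipy 1.17.1. A summit had the first class that covered it in the order coding sequence, 5′ UTR, 3′ UTR, RNA gene exon, intron and RNA gene body, and was otherwise called between genes. A region belonged to every protein-coding gene whose body held its summit, or else to the gene of the nearest TSS. Named were the genes of the 10 highest regions, the 10 genes with most regions in their body, up to 3 genes per list and the 3 regions most different between replicates in each direction. 16 motifs and 12 gene lists were searched or counted, and symbols not matched in the annotation were left out (6 in 4 lists). Distal sequence means bases more than 1000 bp from a protein-coding TSS. Shares have 95% exact binomial intervals and densities exact Poisson intervals, which cover counting error only. Regions are not replicates, so no p-values were computed.

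The members and lists were chosen with earlier results of these data known. The height ranges, the direction of words, the densities per 100 kb and the comparison of long genes were added after the data were examined. The counting code was tested on simulated data with planted regions, motifs and words. The alternatives tried were other distances, each replicate alone, other TSSs, higher regions only, other motif windows and gene bodies only.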

Additional observations from a re-analysis of the deposited data

How the results depend on the processing

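No paired analysis was possible because the samples form 1 group. Of 525 recomputed values, 444 stayed within the main value's 95% interval (for numbers of regions, within 1.5 times), and none of the 7 motif differences (of 16) whose main interval leaves out 0 changed sign. Among the others, 7 changed sign in 1 or more alternatives (Zelda, GATA, Snail, TATA, Motif 6, CACACACA and TATCGATA), so they have no stable direction. The interval of a motif difference is that of the summit share less the flank share taken as fixed. It leaves out the counting error of the flanks and is therefore too narrow, above all for rare motifs. The number of regions was 3926; it was 2509 with replicate summits within 50 bp and 5988 within 250 bp, and 7775 to 8886 when 1 replicate was not required. Intron shares (main 53.8%) were 52.0% with TSSs at 500 bp, 55.7% at 2000 bp, 56.8% with TSSs of all annotated genes, and 48.4% to 51.5% without 1 replicate. Shares between genes (main 25.5%) were 23.5% and 27.9% at the same TSS distances, and 24.0% to 24.7% without 1 replicate. Coding shares (main 11.9%) were 15.1% and 7.57% there, 12.9% with replicate summits within 250 bp, 10.47% in the upper part of the heights (above the median of all regions below the optimal set), and 15.2% to 19.3% without 1 replicate. The median distance to an optimal summit (main 6622 bp) was 6136 bp and 7300 bp at the same TSS distances, 7148 bp when optimal summits up to 1000 bp were dropped, and 6632 bp to 7259 bp without 1 replicate. Spearman's correlation of the replicate heights was 0.32 with replicate summits within 250 bp and 0.25 in the upper part of the heights. The GAGA excess (main 3.26 points) was 1.76 within 50 bp and 2.22 to 2.28 without 1 replicate. The TATA difference (main 0.051 points) was 1.43 with TSSs at 2000 bp and −3.53 to −1.51 without 1 replicate, so it rests on which replicates are required. The CTCF excess (main 0.61 points) was 0.33 without replicate 1, a move of over 1.5 times at the edge of its interval, 0.56 without replicate 3 and 0.92 with replicate summits within 50 bp. The Su(Hw) excess (main 0.66 points) was 0.46 and 0.52 without 1 replicate. The Motif 1 excess (main 0.43 points) was 0.20 with flanks at 1000 bp. The outward share of the word (main 71.2%) was 65.7% to 66.5% without 1 replicate. It was 78.3% for CAGTGTA over all arms and 74.6% on the arms other than 2L and 3L, where that word ranked first by direction. The alternatives for words, coding shares and densities were chosen after seeing the data. Of the 132 recomputed shares of genes per list, 10 moved, and the order of densities per 100 kb depended on the replicates required. Without replicate 1 and without replicate 3, all genes had 8.16 and 9.20 (main 4.01), signalling genes 23.35 and 26.75 (14.2), trachea and salivary gland genes 20.1 and 19.67 (11.3), GATA and endoderm genes 18.8 and 25.9 (8.62), and anterior-posterior patterning genes 17.23 and 22.15 (6.40), so that without replicate 3 the GATA, anterior-posterior and Notch lists (19.74) stood above the trachea list. What depth limits is unknown, since read totals were not used here.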
